A study of Homo sapiens with 12 samples.

Results

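The transcripts described here encode 10 secretory products of myeloid cells, chosen by gene symbol. They were the granule proteases cathepsin G (CTSG), neutrophil elastase (ELANE) and proteinase 3 (PRTN3), their inactive relative azurocidin (AZU1), myeloperoxidase (MPO), lysozyme (LYZ), the alarmins S100A8, S100A9 and S100A12, and the granule proteoglycan serglycin (SRGN). All 10 were among the 27825 gene symbols of the antagonist table, and 4 of them (SRGN, S100A8, S100A9 and S100A12) were among the 904 genes of the agonist table. The cells were U937, an established human leukaemia line of pro-monocytic type, with RNA sequenced in 12 libraries that form 4 groups of 3. Per the labels, every group, controls included, received 50 ng/mL interferon gamma to raise expression of LILRB3, an inhibitory receptor of myeloid cells, and then an antibody for 72 hours. The groups were a LILRB3 antagonist antibody with its nonspecific IgG controls (set 1) and a LILRB3 agonist antibody with separate IgG controls (set 2), at a concentration that the labels write as 5 mg/mL. The comparisons ask how blocking or engaging the receptor changes transcription in a single cell line. Separate cultures are not stated in the labels, so the p-values cover the spread among 3 libraries of a group, which may be purely technical.

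Granulocyte and monocyte progenitors make the serine proteases, azurocidin and myeloperoxidase at the promyelocyte stage and store them in azurophil granules, where serglycin, whose sugar chains are strongly negatively charged, retains the basic proteins. The genes of this wave are driven by C/EBP, PU.1, MYB and RUNX1 and are shut off as cells mature, while lysozyme is made from the progenitor to the macrophage. S100A8 and S100A9 form calprotectin, a calcium- and zinc-binding heterodimer that is abundant in mature monocytes and neutrophils, and S100A12 is a related alarmin, with TLR4 and the receptor AGER as known receptors of the family.

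The AZU1, PRTN3 and ELANE genes lie side by side on chromosome 19 (827837 to 832018, 840999 to 848175 and 852303 to 856243, RefSeq, GRCh38.p14), and CTSG lies apart from them on chromosome 14 (24573518 to 24576250). The S100 genes share a cluster on chromosome 1, with S100A9 at 153357854 to 153361023, S100A12 at 153373711 to 153375621 and S100A8 at 153390032 to 153422583. Promoter sequences from RefSeq were at hand for 6 of the 10 genes, with 8 start sites in all. ELANE, MPO, LYZ and SRGN had no entry, so LYZ and SRGN, which also fell with the antagonist, cannot be compared. The sequences are shown because CTSG fell with the antagonist while AZU1 and PRTN3 did not pass the test in the main fit. PRTN3 was called lower under some other settings. The S100 genes are shown because they were among those listed with the agonist. A link between these letters and the changes was not tested. Each line gives the 150 bases just before the start, 5′ to 3′ on the gene's own strand. Capitals mark AGGAAG (the ETS core as bound by PU.1), TTNNGCAA (C/EBP), CAACNG (MYB) and TATAAA (the TATA box), on either strand. The intervals are chr14:24576251-24576400 (minus strand) for CTSG, chr19:827687-827836 (plus) for AZU1, chr19:840849-840998 (plus) for PRTN3, chr1:153357704-153357853 (plus) for S100A9, chr1:153391074-153391223 (minus, the second listed start) for S100A8 and chr1:153375622-153375771 (minus) for S100A12.
CTSG: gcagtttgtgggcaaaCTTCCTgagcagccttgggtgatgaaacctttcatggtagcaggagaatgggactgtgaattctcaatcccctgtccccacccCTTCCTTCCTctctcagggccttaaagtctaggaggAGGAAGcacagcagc
AZU1: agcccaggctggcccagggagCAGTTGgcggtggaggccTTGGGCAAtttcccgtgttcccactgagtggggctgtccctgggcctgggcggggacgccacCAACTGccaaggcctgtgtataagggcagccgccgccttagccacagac
PRTN3: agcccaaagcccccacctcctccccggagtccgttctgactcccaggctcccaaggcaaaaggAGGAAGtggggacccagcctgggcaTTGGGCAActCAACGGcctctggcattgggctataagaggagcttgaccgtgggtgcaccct
S100A9: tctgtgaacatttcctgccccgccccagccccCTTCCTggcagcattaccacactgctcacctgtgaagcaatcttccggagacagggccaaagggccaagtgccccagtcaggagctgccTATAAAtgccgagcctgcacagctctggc
S100A8: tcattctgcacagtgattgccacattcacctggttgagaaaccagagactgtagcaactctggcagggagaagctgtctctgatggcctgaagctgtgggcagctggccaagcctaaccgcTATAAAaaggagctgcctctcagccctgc
S100A12: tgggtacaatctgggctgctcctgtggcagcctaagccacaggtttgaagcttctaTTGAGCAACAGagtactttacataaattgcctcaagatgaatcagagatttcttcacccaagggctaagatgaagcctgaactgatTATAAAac

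Over the 250 bases upstream of a start, CTSG held 4 matches to AGGAAG, of which 2 overlapped, and none to the other letters. AZU1 held 1 match to TTNNGCAA and 2 to CAACNG, and PRTN3 held 1 match to each of AGGAAG, TTNNGCAA and CAACNG. In S100A12 the matches to TTNNGCAA and CAACNG overlapped. S100A9 and the second start of S100A8 each held TATAAA 29 bases upstream of the start. Of 35114 RefSeq windows of the same length, 28.7% held AGGAAG, 9.05% TTNNGCAA, 27% CAACNG and 10.7% TATAAA. A match describes the letters and is not evidence of a bound site.

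Library totals were between 17035334 and 18820312 counts in set 1. The table of set 2 is a selected part of a larger one, with 2764479 to 3522203 listed counts per library and no log2 fold change between -0.25 (HSP90AB1) and 0.12 (ITGB2), an interval that held 43.0% of the genes of set 1. Its column totals are not depths and its zero point is uncertain. Library 1 of the IgG group in set 1 stood apart from its group, with a chi-square per degree of freedom of 10.4 and 18.5 against the other libraries and 4.32 between those. Library 1 of the agonist group did likewise (24.9 and 26.6 against 3.74), and results are given below without each. Of U937 markers other than the members, all 8 (CD33, PTPRC, CD4, ITGAL, ITGAM, CD68, CSF1R and SPI1) passed the count filter in set 1. They summed to between 896 and 998 counts-per-million (CPM) of library totals. CPM of single tested genes below is scaled by trimmed mean of M-values (TMM) unless stated otherwise. Among the markers of other lineages, HBB, PF4, PPBP, MS4A1, EPCAM, CD3G, KLRD1 and MMP8 had no count in any library of set 1. Other genes of the same lists were counted, NKG7 and CSF3R among them. In the IgG libraries the T and NK cell list summed to 336 to 359 CPM of library totals and the neutrophil list to 220 to 263. The B cell list summed to 28.3 to 30.6, the erythroid and megakaryocyte list to 15.9 to 18.3 and the epithelial and fibroblast list to 1.17 to 2.10.

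In the IgG cells of set 1, 6 of the 10 transcripts were abundant and 4 were near or below detection. Per kilobase of the longest transcript, the TMM-scaled level was 2439 ± 27 CPM per kb (SD, n = 3) for CTSG, 723 ± 64 for AZU1, 679 ± 35 for ELANE, 646 ± 69 for SRGN, 282 ± 33 for PRTN3 and 133 ± 13 for LYZ. By the longest coding transcript CTSG stood at 3754 ± 42, still the highest. AZU1, ELANE and SRGN had overlapping library ranges (661 to 789, 642 to 711 and 605 to 726), so their order is not resolved, whereas the neighbours on either side of them were separated. CTSG ranked 16th among all tested genes by CPM, without regard to length. At the other end S100A9 reached 1.45 ± 0.47 CPM per kb and MPO 0.145 ± 0.106. S100A8 had 7 counts over the 3 IgG libraries and S100A12 had none, which allows up to 0.0563 CPM in the summed IgG libraries (3 counts, covering counting error only).

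With the antagonist, CTSG, LYZ and SRGN fell and no member rose. They made 3 of the 8 members that passed the count filter, beside 36.1% of all 13778 tested genes called in either direction, 15.6% higher and 20.5% lower. The same 3 were also the members whose groups did not overlap, beside 49% of all tested genes (21.9% higher and 27.1% lower). The share of members called was thus near that of all genes. Over all genes, 2147 were called higher and 2831 lower, against 3021 and 1597 with scaling by library totals, and the 4978 called became 3143 without antagonist library 1 and 3190 without antagonist library 3. AZU1, ELANE and PRTN3, from the chromosome 19 cluster, did not pass the test in this fit. Values below are on the TMM-scaled CPM scale for one gene across libraries, and in bulk RNA fewer cells of a type and less RNA per cell cannot be told apart.

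**Figure D1:**
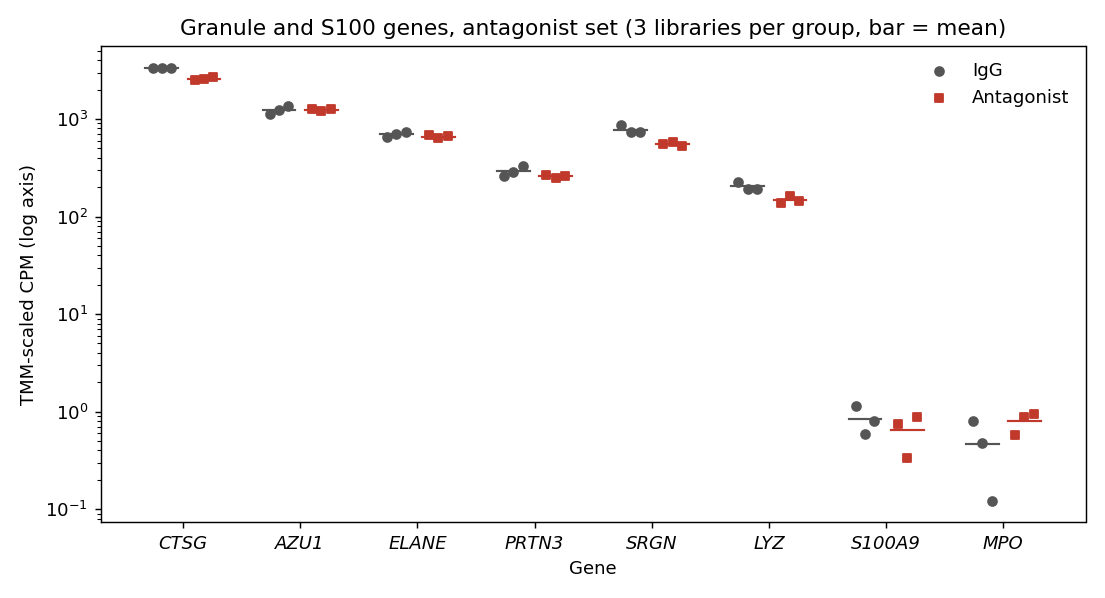
TMM-scaled counts-per-million (log axis) of the 8 tested members in each library of set 1, with circles for IgG, squares for the antagonist and a bar at the mean of 3 libraries. The CTSG, SRGN and LYZ squares all lie below their circles, the groups of AZU1, ELANE and PRTN3 overlap, and S100A9 and MPO sit near 1 CPM.

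CTSG, a chymotrypsin-like protease, measured 3303, 3307 and 3369 CPM in the IgG libraries and 2543, 2601 and 2667 CPM with the antagonist. The IgG libraries lay close together and well above every antagonist library. The mean moved from 3326 ± 37 to 2604 ± 62 CPM (SD, n = 3), which is 78.3% of the control, with a log2 fold change of -0.35 ± 0.05 (SE, edgeR adjusted p = 0.000507). Leaving out any library gave -0.37 to -0.33.

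LYZ, which cleaves bacterial cell walls, measured 227, 192 and 194 CPM with IgG and 139, 163 and 144 CPM with the antagonist. The groups did not overlap, and IgG library 1 was the highest. The mean fell from 204 ± 20 to 149 ± 12 CPM (72.9% of control), a log2 fold change of -0.46 ± 0.08 (edgeR adjusted p = 0.00119), and without that library the change was -0.35 (edgeR adjusted p = 5.09e-05).

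SRGN, the proteoglycan core that holds proteases in the granule, measured 877, 732 and 731 CPM with IgG and 553, 588 and 532 CPM with the antagonist. Again IgG library 1 was highest and all antagonist libraries were below all IgG libraries. Its mean fell from 779.97 ± 84 to 557 ± 28 CPM (71.5% of control), a log2 fold change of -0.48 ± 0.08 (edgeR adjusted p = 0.000699). Without IgG library 1 the change was -0.37 (edgeR adjusted p = 2.87e-06).

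AZU1, an antimicrobial protein that has lost protease activity, measured 1133, 1233 and 1352 CPM with IgG and 1264, 1195 and 1279.6 CPM with the antagonist, so that all antagonist values lay inside the IgG range. Its log2 fold change was 0.01 ± 0.07 with a 95% interval of -0.13 to 0.14 (edgeR adjusted p = 0.939). ELANE, the elastase of azurophil granules, measured 659.9, 705 and 731 CPM with IgG and 680.1, 638 and 666 CPM with the antagonist. Its groups overlapped, with a log2 fold change of -0.08 ± 0.06 (95% interval -0.20 to 0.04, edgeR adjusted p = 0.325). PRTN3, the elastase-like protease recognised by the autoantibodies of granulomatosis with polyangiitis, measured 262, 287 and 329 CPM with IgG and 267, 251 and 258 CPM with the antagonist. IgG library 1 was the lowest of its group and lay within the antagonist range. The log2 fold change of PRTN3 was -0.18 ± 0.08 (edgeR adjusted p = 0.0886). Without IgG library 1 it was -0.23 and passed the test (edgeR adjusted p = 0.00207), which made 4 members lower.

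Ratios of 2 members within a library do not depend on scaling, but they can carry trends with base composition and transcript length, which are given further below. The log2 ratio of AZU1 to CTSG counts was -1.54, -1.42 and -1.32 in the IgG libraries and -1.01, -1.12 and -1.06 with the antagonist, a separation of the groups by 0.36 on average. For ELANE to CTSG the ratios were -2.32, -2.23 and -2.21 with IgG and -1.90, -2.03 and -2.00 with the antagonist, higher by 0.28 and again without overlap. The chromosome 19 genes also moved against each other, with log2 ratios of AZU1 to PRTN3 of 2.11, 2.10 and 2.04 with IgG and 2.24, 2.25 and 2.31 with the antagonist. Each of these 3 separations gave an exact two-sided permutation p of 0.1, the smallest that 3 against 3 libraries can give, and 0.2 after Benjamini-Hochberg adjustment over the 14 pairs computed. The ratio of PRTN3 to CTSG was higher by 0.18 with overlapping groups (exact permutation p = 0.3). The ratios among CTSG, LYZ and SRGN had mean differences of 0.10 for CTSG to LYZ, 0.13 for CTSG to SRGN and 0.03 for LYZ to SRGN (exact permutation p = 0.5, 0.5 and 0.6), and 3 libraries a group leave differences of that size unresolved.

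MPO, the haem peroxidase that makes hypochlorous acid, had 15, 8 and 2 counts in the IgG libraries and 10, 16 and 17 with the antagonist. The groups overlapped, and the log2 fold change was 0.73 ± 0.49 (edgeR adjusted p = 0.267). A test of the summed counts, 25 against 43, gave a ratio of 1.75 (95% counting interval 1.05 to 2.99, exact two-sided conditional binomial p = 0.0285), which ignores the spread between libraries. S100A9 had 21, 10 and 13 counts with IgG and 13, 6 and 16 with the antagonist, a log2 fold change of -0.38 ± 0.41 (edgeR adjusted p = 0.505). S100A8 was below the filter with 4, 2 and 1 counts against 1, 1 and 0, a ratio of 0.291 with a counting interval of 0.0295 to 1.53 (exact two-sided conditional binomial p = 0.18). S100A12 had 0 counts in all 6 libraries, which allows up to 0.0563 CPM over the IgG group and 0.0573 over the antagonist group. The 95% interval of the S100A9 change ran from -1.18 to 0.43 on the log2 scale, so smaller changes could not be resolved at these counts.

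**Figure D2:**
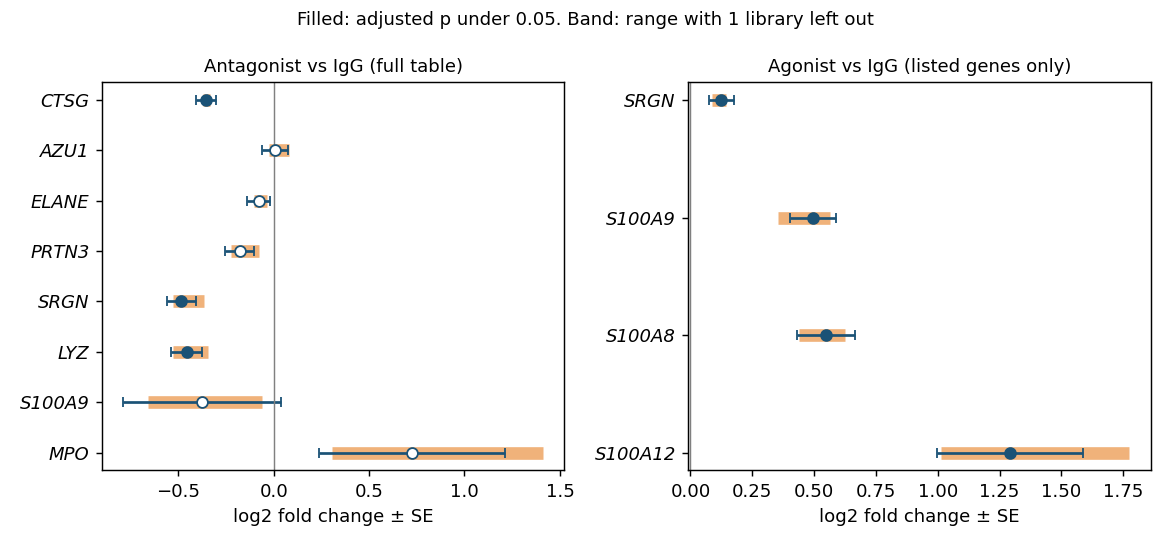
Log2 fold change against IgG ± SE for each tested member, with the antagonist (left) and among the listed genes with the agonist (right). Filled points have an adjusted p under 0.05 and orange bands span the values with 1 library left out. CTSG, LYZ and SRGN are the filled points left of zero with the antagonist, and S100A12 is farthest to the right with the agonist.

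Fold changes in set 1 moved with base composition. Across the 13119 tested genes with a transcript in the annotation, the Spearman correlation of log2 fold change with GC content was 0.284, and with transcript length 0.236, a description across genes that share the same 6 libraries. The members differ in this respect, since the longest transcripts of SRGN and LYZ have 38.1% and 41.5% GC, CTSG 54.7% and AZU1, PRTN3 and ELANE 63.4%, 66.4% and 66.8%. With the length and GC trends removed by offsets, the log2 fold change was -0.30 for CTSG, -0.21 for LYZ and -0.17 for SRGN (edgeR adjusted p = 2.92e-07, 0.000422 and 0.000363). All 3 stayed lower, and LYZ and SRGN came down by more than 1.5 times. PRTN3 at -0.23 and ELANE at -0.14 then passed the test as lower (edgeR adjusted p = 8.12e-05 and 0.00854), and AZU1 at -0.06 did not (edgeR adjusted p = 0.157), so 5 members were called, beside 40.2% of the genes in that fit (25.8% lower and 14.4% higher). The part of base composition in the measured changes was not tested beyond these values.

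**Figure D3:**
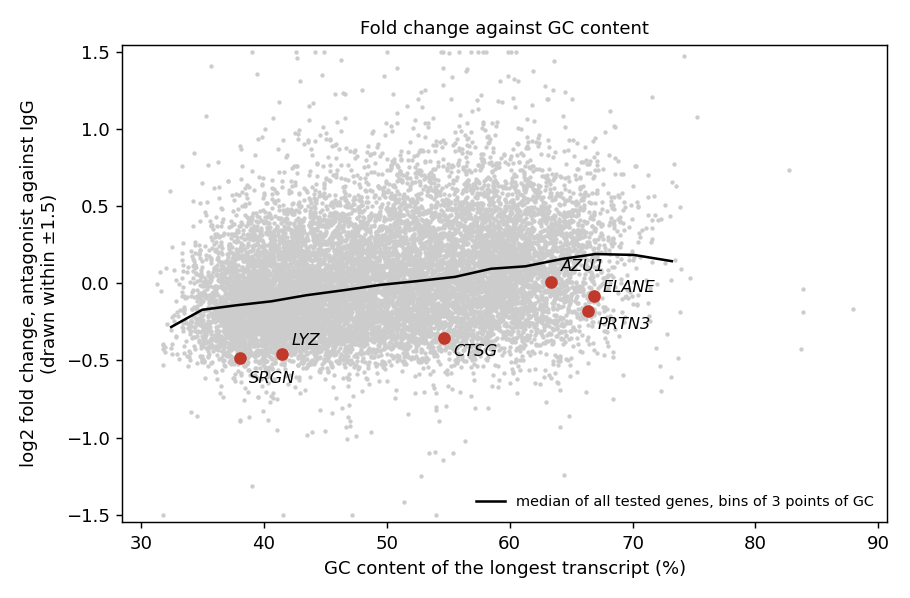
Log2 fold change, antagonist against IgG, plotted against the GC content of the longest transcript (%), with grey points for all tested genes with an annotated transcript, a black line for their median in bins of 3 points of GC, and red points for 6 members. The line rises with GC content, and all 6 members lie below it, from SRGN at 38.1% to ELANE at 66.8% GC.

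Among 2376 genes of at least 100 CPM, the 3 whose log2 CPM was most like that of CTSG over the 6 libraries of set 1 were TUBA1C, an alpha tubulin (Pearson r = 0.999), PHB2, a mitochondrial prohibitin (0.999), and RPL8, a ribosomal protein (0.998). Their log2 fold changes were -0.39, -0.37 and -0.37. The 6 points share the treatment contrast, and no test is attached to these correlations.

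Counts of the lists below are read beside all tested genes, of which 20.5% were called lower and 15.6% higher with the antagonist. With library totals these shares were 11.6% and 21.9% (33.5% in all), and with the trends removed 25.8% and 14.4%. Of 24 tested azurophil and lysosomal granule genes beyond the members, 12 fell and 0 rose, and their median log2 fold change was -0.22, beside -0.01 over all tested genes. The summed level of the list was not lower. It was 9870 to 10935 CPM of library totals with IgG and 10421 to 11071 with the antagonist. The eosinophil-type ribonucleases RNASE3 and RNASE2 moved from 37.2 ± 2.3 to 25.3 ± 0.92 CPM and from 58.2 ± 3.4 to 41.9 ± 0.62 CPM (edgeR adjusted p = 0.000383 and 0.000415). CD63, the tetraspanin that sorts elastase to granules, fell by 0.38 on the log2 scale and the lysosomal fucosidase FUCA1 fell by 0.36. Scaled by library totals 9 of the 24 were called lower and 0 higher, and with the trends removed 21 were lower and 0 higher.

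Inhibitors and activators of the granule proteases all fell, 12 of 12 tested, with a median of -0.33. CST7 (cystatin F), which inhibits the protease activator cathepsin C inside granules, moved from 1598 ± 52 to 1258 ± 47 CPM, a log2 fold change of -0.34 ± 0.06 (edgeR adjusted p = 0.000872). The elastase inhibitor SLPI fell by 0.49 on the log2 scale, from 13.4 ± 0.76 to 9.56 ± 0.56 CPM, SERPINB10 by 0.43 and the cathepsin inhibitor CSTB by 0.41. Scaled by library totals, 6 of the 12 were called lower and 0 higher. CTSC, the dipeptidyl peptidase that activates the granule serine proteases, and SERPINB1, an inhibitor of elastase and cathepsin G, are on this list and on the azurophil list.

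In the S100 family and its receptors, 6 of 18 tested genes fell and 0 rose (median -0.19). Those named by the rule, S100A6 (192 ± 35 to 130 ± 0.78 CPM), S100A4 (209 ± 19 to 144 ± 5.1 CPM), S100P (107 ± 10 to 75.3 ± 4.3 CPM) and S100A11 (145 ± 9.6 to 113 ± 3.8 CPM), encode calcium-binding S100 proteins and had log2 fold changes of -0.56, -0.54, -0.51 and -0.35. Scaled by library totals, 2 of the 18 were higher and 4 lower. Of 28 packaging and export genes, 8 fell and 5 rose, among them JAGN1, needed for granulocyte protein secretion, at -0.32, and the granule biogenesis genes LYST and HPS4, both at 0.33. Of 22 genes for the sugar chains of serglycin, 4 fell and 1 rose. XYLT1, which starts the chain, rose by 0.35, and the linker enzyme B3GALT6, the sulphate donor synthase PAPSS1 and UGDH, which makes UDP-glucuronic acid, fell by 0.39, 0.33 and 0.25. Without IgG library 1 this list had 7 lower and 1 higher, and with the trends removed 10 lower and 1 higher.

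Of 15 tested genes for haem synthesis, the oxidase and the chaperones of myeloperoxidase, 4 fell and 0 rose. These were the haem enzymes UROD (-0.30) and ALAS1 (-0.21) and the chaperones CANX (-0.25) and CALR (-0.23, 2609.9 ± 34 to 2223 ± 16 CPM). Of 23 transcription factors of granule and monocyte genes, 6 fell and 2 rose, and CEBPE, which drives late granule genes, moved from 40.9 ± 3.7 to 34.2 ± 2.1 CPM (-0.26, edgeR adjusted p = 0.0277). ELF1 stood at -0.30 and ID2 at -0.26. Scaled by library totals, 1 of the 23 was lower and 3 higher. Of 7 specific and gelatinase granule genes 1 fell, CYBA at -0.29, and 1 rose, PGLYRP1 at 0.91, which stood at 1.30 ± 0.16 and 2.44 ± 0.93 CPM with overlapping groups. With library totals 3 were higher and 1 lower.

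Of 16 mature monocyte genes, 7 fell and 1 rose, with CX3CR1 at -0.62, TYROBP at -0.38 and the integrin ITGAX at 0.42. Scaled by library totals this list had 1 lower and 2 higher, and without IgG library 1 it had 4 lower and 1 higher. Among 9 tested neighbours of the chromosome 19 cluster 1 rose (ARID3A, 0.24) and 0 fell, and with the trends removed 0 rose and 6 fell. Without IgG library 1, 3 neighbours were lower and 1 higher. Of 4 tested neighbours of CTSG on chromosome 14, 1 rose (KHNYN, 0.23) and 0 fell, and 0 were called with the trends removed. The lists overlap in a few genes and were chosen with earlier results known, so the counts describe them and test nothing.

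**Figure D4:**
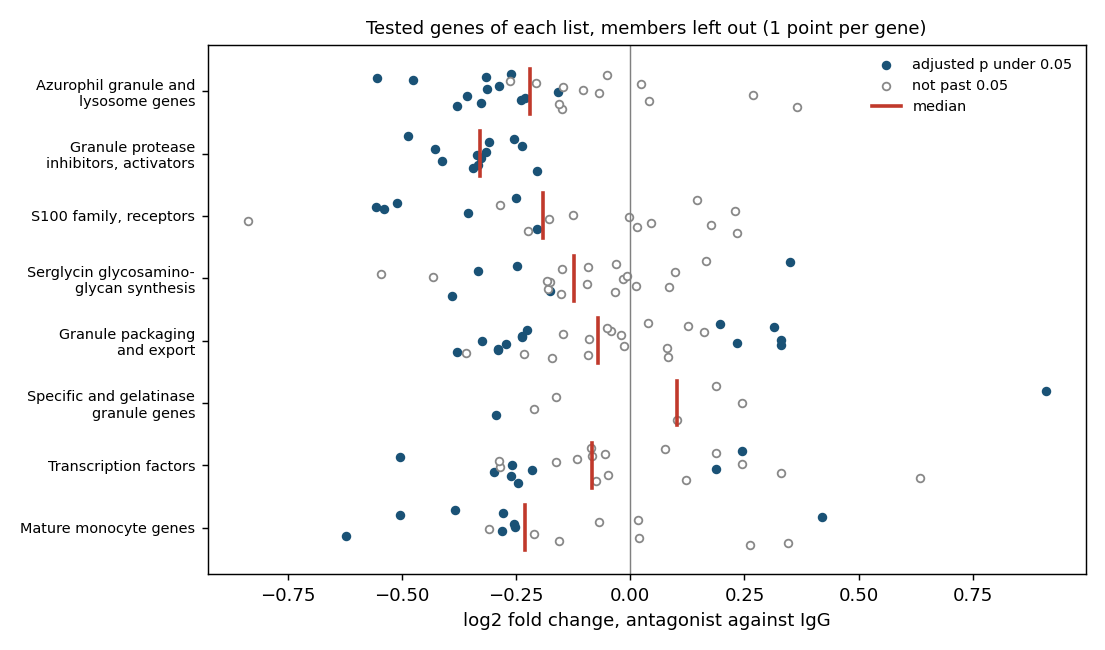
Log2 fold change, antagonist against IgG, of every tested gene in 8 lists, with the 10 members left out. Filled points have an adjusted p under 0.05, open points do not and the red bar is the list's median. Every protease inhibitor or activator is filled and left of zero, while the packaging genes lie on both sides.

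With the agonist, all 4 listed members were higher than with IgG, beside 99.9% of the 904 listed genes called in either direction, 55.6% higher and 44.2% lower. The listed genes were selected, so a call among them is a description. All 4 also had groups that did not overlap, beside 97.6% of listed genes (53.4% higher and 44.1% lower). CTSG, ELANE, AZU1, PRTN3, MPO and LYZ were not analysed here with the agonist. Levels are TMM-scaled counts-per-million values of the listed genes and are not comparable with CPM in set 1.

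S100A12 had 33, 54 and 22 counts with IgG and 109, 86 and 95 with the agonist. Every agonist library lay above every IgG library, and IgG library 2 was the highest of its group. In listed CPM the values were 9.96, 19.3 and 6.92 with IgG and 31.9, 27.2 and 28.1 with the agonist, means of 12.1 ± 6.5 and 29.05 ± 2.5. The log2 fold change was 1.29 ± 0.30 (edgeR adjusted p = 0.00154), and it ranged from 1.01 to 1.78 with 1 library left out.

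S100A8 measured 190.2, 149 and 192 listed CPM with IgG and 296, 232 and 249.9 with the agonist, without overlap. Its log2 fold change was 0.55 ± 0.12 (edgeR adjusted p = 0.00102). Its partner S100A9 measured 821, 899 and 858 listed CPM with IgG and 1432, 1109 and 1092 with the agonist. Agonist library 1, which stood apart from its group, was the highest in both genes of the heterodimer. The S100A9 log2 fold change was 0.50 ± 0.09 (edgeR adjusted p = 0.000591). Without that library it was 0.36 for S100A9 and 0.44 for S100A8 (edgeR adjusted p = 1.03e-08 and 0.000192).

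SRGN measured 14800.5, 13985 and 14796 listed CPM with IgG and 16640.3, 15469 and 15435 with the agonist. The groups did not overlap, and agonist library 1 was again the highest. The log2 fold change was 0.13 ± 0.05 (edgeR adjusted p = 0.0233), the third smallest of the 504 values above zero in the table. Without IgG library 2, the lowest of its group, it was 0.10 (edgeR adjusted p = 0.131), and with DESeq2 it was 0.03 (DESeq2 adjusted p = 0.581). The SRGN call was lost under each of these settings. Without agonist library 1 the change was 0.09 (edgeR adjusted p = 0.000923).

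Within libraries, the ratios of the S100 genes to SRGN were higher in every agonist library than in any IgG library. The log2 ratio of S100A9 to SRGN was -4.17, -3.96 and -4.11 with IgG and -3.54, -3.80 and -3.82 with the agonist, higher by 0.36. For S100A8 to SRGN the ratios were -6.28, -6.55 and -6.27 with IgG and -5.81, -6.06 and -5.95 with the agonist, higher by 0.43. The ratio of S100A12 to SRGN was higher by 1.27 and that of S100A12 to S100A9 by 0.91. Each of these 4 separations had an exact permutation p of 0.1, the smallest the design allows, and 0.2 after adjustment over the 14 pairs. For the 2 subunits of calprotectin, the log2 ratio of S100A8 to S100A9 was -2.11, -2.59 and -2.16 with IgG and -2.27, -2.26 and -2.13 with the agonist (difference 0.07, exact permutation p = 0.9). The groups overlapped, and the SD of the IgG ratios was 0.26.

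Fold changes among the listed genes also moved with GC content (Spearman 0.331 over 874 genes) and with transcript length (-0.307). With both trends removed, the log2 fold change was 1.10 for S100A12 (edgeR adjusted p = 0.00173), 0.15 for S100A8, 0.05 for S100A9 and 0.04 for SRGN (edgeR adjusted p = 0.188, 0.339 and 0.195), so that 1 member was called. Of the 874 listed genes in that fit, 74.8% were called (35.7% higher and 39.1% lower). The median log2 fold change of the listed genes was 0.19 before removal and 0.01 after it. These trends were fitted to selected genes only. The ratios to SRGN above still carry them, since the longest transcripts of SRGN, S100A9 and S100A8 have 38.1%, 55.6% and 53.7% GC. With the trends removed, the changes of S100A9 and S100A8 lay closer to that of SRGN than before. The ratios themselves were not recomputed in that fit.

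Other granule and monocyte genes listed with the agonist were mostly higher, beside 55.6% of all 904 listed genes called higher and 44.2% lower. The listed genes were selected, so these counts are a description. All 8 listed azurophil genes rose, among them RNASE3 (128 ± 16 to 181 ± 22 listed CPM, 0.50), RNASE2 (0.36), the macrophage sialomucin CD68 (0.33) and FUCA1 (0.31). All 3 specific granule genes rose, with the gelatinase MMP9 at 0.72, MMP25 at 0.36 and CHI3L1 at 0.31. All 10 mature monocyte genes rose, with SPP1 (osteopontin) at 1.24, the lipopolysaccharide co-receptor CD14 at 0.93 and the haemoglobin scavenger CD163 at 0.80. The 4 listed S100 and receptor genes rose, CD14, CD36 (0.58), S100A4 (0.41) and S100A10 (0.29). The protease inhibitors A2M (1.47) and SERPINA1 (0.17) rose as well. Transcription factors went the other way for 3 of 4, with MYC at -0.58, RUNX1 at -0.47, ETS1 at -0.37 and ID2 at 0.21. With the trends removed, 4 azurophil genes were higher and 1 lower, 7 monocyte genes were higher, and 3 transcription factors were lower. In that fit 35.7% of listed genes were called higher and 39.1% lower. Without agonist library 1, and with the trends kept, 8 azurophil, 10 monocyte and 4 transcription factor genes were called, as in the main fit.

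**Figure D5:**
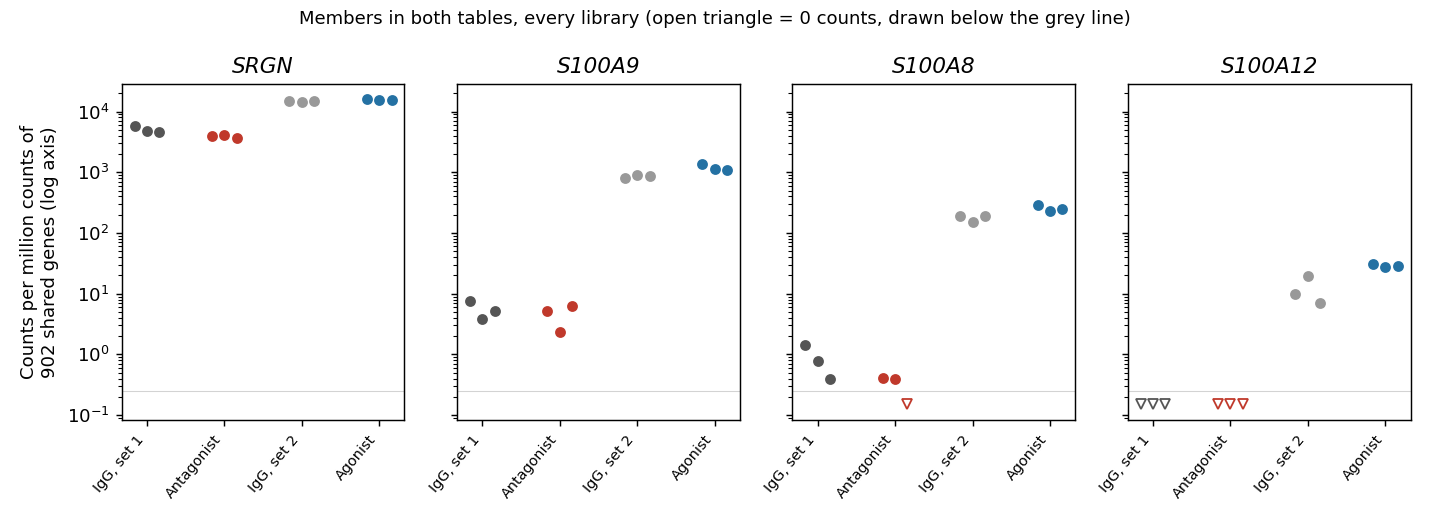
Counts-per-million over the counts of the 902 shared genes (log axis) for the members present in both tables, 1 point per library in each of the 4 groups, with open triangles for 0 counts. S100A8 and S100A9 lie near 1 and 5 in set 1 and near 178 and 865 in the IgG libraries of set 2, a larger gap than either antibody gave.

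The largest contrast in the S100 genes was between the IgG groups of the sets, which the labels describe alike. In counts-per-million over the 902 genes in both tables, S100A8 was at 1.44, 0.778 and 0.393 in the IgG libraries of set 1 and at 189.7, 151 and 194 in those of set 2. The mean was 204-fold higher in set 2 and ranked first of the 889 shared genes with at least 3 counts in the IgG libraries of set 1 (ratio of summed counts 202, counting interval 97.9 to 504). S100A9 was at 7.57, 3.89 and 5.10 in set 1 and 819, 909 and 866 in set 2, 157-fold higher (rank 3, ratio of summed counts 155, counting interval 115 to 213). S100A12, with 0 counts in set 1, was at 12.2 ± 6.6 in set 2, at least 24.8-fold higher by the counting interval of the ratio of summed counts, and 31.96-fold higher against a floor of 3 counts over the group. SRGN was at 5128 ± 656 and 14611 ± 419, 2.85-fold higher, at rank 135, and the median fold of all shared genes was 1.05. The gelatinase MMP9 (182-fold) and the collagenase MMP1 (145-fold) took ranks 2 and 4. The ranked genes are those listed in set 2, a selected part, and genes absent from that list could not be ranked. S100A8 and S100A12 were below the count filter of set 1 and are compared only because set 2 lists them. The ranks and the median fold are therefore a description of the listed genes. For every 1000 SRGN counts a library held 0.809 to 1.29 S100A9 counts with IgG in set 1, 0.563 to 1.66 with the antagonist, 55.5 to 64.3 with IgG in set 2 and 70.8 to 86.1 with the agonist. The IgG libraries fell in separate ranges. No test was made, since any other difference between the sets cannot be told apart from one between the IgG groups. Interferon is in the column names of set 1 (IFN) and not in those of set 2, whereas the sample labels state it for all groups.

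The measured log2 fold changes of SRGN differed between the antibodies. The shared genes were selected in set 2, with no change near zero there, so calls among them are a description. For SRGN the agonist minus antagonist difference in log2 fold change was 0.61 ± 0.09 over the shared genes (edgeR interaction, adjusted p = 7.53e-05). Of all 902 shared genes, 56.5% were called, 29.7% higher with the agonist and 26.8% lower. In the set 1 libraries all 3 antagonist values were below all IgG values, and in set 2 all 3 agonist values were above. With length and GC trends removed in each set the difference was 0.21 (edgeR adjusted p = 0.000354). For S100A9 the difference was 0.87 ± 0.43 (edgeR adjusted p = 0.0899) and for S100A8 2.13 ± 1.01 (edgeR adjusted p = 0.0817), with the counts of set 1 limiting both, and S100A12 gave no difference because set 1 held no count of it. The list genes named in both comparisons were picked for their called changes in these same data. That choice favours a difference, so their adjusted p-values describe them and test nothing. Among these genes, the difference was 1.06 for RNASE3, 0.95 for S100A4, 0.84 for RNASE2 and 0.67 for FUCA1 (edgeR adjusted p = 4.83e-05, 1.86e-05, 2.06e-05 and 2.19e-06). It was 0.55 for NKG7, a lymphocyte granule protein, 0.47 for ID2 and -0.56 for ARID3A (edgeR adjusted p = 9.78e-05, 0.000553 and 0.000503), the last with -0.32 under the agonist.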

How the data were processed

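RNA was measured by sequencing in 12 U937 libraries. The authors deposited whole-number read counts per gene, without normalization, in 1 table per set. HISAT2, Cufflinks and the hg38 build are named in the submitters' processing notes. What counted the reads, on which annotation and with which strand setting is not given in the sources used here, so reads of antisense partners cannot be separated. Per the file headers columns carry a group and no replicate number; library numbers follow table order. In set 1, 570 of 28395 rows had no symbol, held 0.0678% to 0.105% of counts and stayed out of totals and tests.

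The tests ran on counts in R 4.3.3 with edgeR 4.0.16 (filterByExpr, TMM, robust quasi-likelihood test, Benjamini-Hochberg at 0.05 over all tested genes), each antibody against its own IgG. Differences between antibodies were the interaction over the 902 shared genes, each set scaled on its own. Standard errors came from the fold change and the F statistic, and 95% intervals are 1.96 SE. Ratios within libraries used exact permutation tests, and low counts an exact conditional binomial test whose intervals cover counting error only. Alternatives were DESeq2 1.42.0, other scalings, no filter, 1 library left out and, added after seeing the data, another zero point and removal of transcript length and GC trends (splines with 5 degrees of freedom on GENCODE 29 transcripts, for 95.2% of tested genes). Tested on simulated counts of the antagonist design (13654 genes), the test called 72.7% of changes of 0.5 and 90.7% of changes of 1 on the log2 scale. The simulation changed 99 genes by 0.5 and 97 by 1 and left 13458 unchanged. In the data 36.1% of genes were called, so these rates need not hold there. Named genes were all members, up to 4 called genes per list and comparison with the largest change, and the 3 genes most like CTSG, and a gene that this rule names is not reported here. The members and lists were chosen with earlier results of these data known.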

Additional observations from a re-analysis of the deposited data

Results flagged for a closer look

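SRGN was singled out because its response differed between the antibodies: the log2 fold change with the agonist minus that with the antagonist was 0.61 in the edgeR interaction test. It was lower in 3 of 3 antagonist libraries than in all IgG libraries of set 1 and higher in 3 of 3 agonist libraries than in all IgG libraries of set 2. Against its own IgG group the change was -0.48 with the antagonist and 0.13 with the agonist. The rise with the agonist ranged from 0.03 to 0.21 over 12 alternatives and did not pass the threshold in 3 of them. Over 15 alternatives the difference stayed between 0.21 and 0.66, with edgeR or DESeq2 adjusted p between 6.39e-06 and 0.000429. The shared genes were selected in set 2, so the call is a description. SRGN itself stood 2.85-fold apart between the IgG groups, and the zero point of set 2 is uncertain. The part of these in the difference was not tested.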

How the results depend on the processing

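CTSG, LYZ and SRGN stayed lower and past the threshold with the antagonist under all 11 alternatives, with log2 fold changes of -0.37 to -0.27, -0.53 to -0.21 and -0.53 to -0.17. PRTN3 ranged from -0.23 to -0.08 and passed the threshold as lower in 3 of the 11. ELANE turned to 0.00 with library totals (0.00243), and AZU1 turned to -0.0588 with the trends removed and ranged from -0.0256 (without IgG library 1) to 0.0829 with 1 library left out, below zero also without antagonist library 1 (-0.00356) and 3 (-0.0123). With the trends removed, 5 members were called with the antagonist and 1 with the agonist. Genes called with the antagonist ranged from 3143 to 5075 with 1 library left out, at 3143 without antagonist library 1 and 3190 without library 3, where fewer samples were tested; members called ranged from 3 to 4. The split of 2147 higher and 2831 lower calls became 3021 and 1597 with library totals, and the 503 and 400 with the agonist became 308 and 400 with DESeq2. The 268 and 242 of the interaction became 215 and 314 with library totals and 223 and 328 with DESeq2. No paired analysis was possible because the columns carry no replicate numbers. The low counts of MPO, S100A8 and S100A9 in set 1 limit what could be detected there.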

Other observations

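Among the markers of other lineages counted in set 1, NKG7, a granule membrane protein of lymphocytes, was at 353 ± 18 CPM with IgG and 282 ± 2.2 with the antagonist (log2 fold change -0.32, edgeR adjusted p = 0.00138). The lymphoid gene CD5 moved from 0.96 ± 0.36 to 3.15 ± 0.56 CPM (1.73, edgeR adjusted p = 0.000796) and the B-lineage factor PAX5 from 13.6 ± 0.40 to 16.6 ± 1.2 CPM (0.29, edgeR adjusted p = 0.0324). CSF3R, the receptor for the granulocyte growth factor, moved from 245 ± 29 to 285 ± 14 CPM (0.22, edgeR adjusted p = 0.048). NKG7 was also listed with the agonist, at 0.22.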
